A study of Homo sapiens with 6 samples.

Results

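The genes described here encode the proteins of the mitochondrial ribosome. They were taken from the count table by name alone, as every row whose symbol begins with MRPL or MRPS followed by a digit, which gave 78 of the 20030 genes in the table. All 6 libraries came from HepG2, an established human hepatoma line. The cells had been infected with lentivirus, which delivered a hairpin RNA (shRNA) to both groups. In the 3 sh-ctrl libraries the hairpin was a control, and in the 3 sh-KIF11 libraries it directed the cleavage of KIF11 mRNA. KIF11 is the motor protein that pushes spindle poles apart in mitosis. Poly(A) RNA was sequenced from each library, and the comparison asks how the level of each mRNA differed once KIF11 was knocked down. Neither the labels nor the methods say whether the libraries of a group came from separate cultures, so the p-values measure the spread between these libraries, which may be technical.

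Mitochondria keep a small genome of their own, and the mRNAs read from it, which code for core subunits of the respiratory chain and ATP synthase, are translated inside the organelle by a dedicated ribosome. Its rRNAs come from the mitochondrial genome, whereas all of its proteins are encoded in the nucleus, made in the cytosol and imported. The large subunit (MRPL genes) forms peptide bonds and holds the tunnel through which the new chain leaves, and the small subunit (MRPS genes) binds the mRNA and decodes it. Many of these proteins have bacterial relatives and others are found only in mitochondria. The names are not a perfect guide to place, since the products of MRPS30 and MRPS18A sit in the large subunit, and MRPS36 (also KGD4) belongs to the 2-oxoglutarate dehydrogenase complex.

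Libraries held between 18167773 and 19583282 counts. Counts were scaled with TMM factors, and levels are given as TMM-normalized CPM (counts scaled to library size). This unit does not correct for transcript length. Fold changes are read within a gene, while sums and comparisons of CPM across genes also carry transcript length. A gene was called when its adjusted p was under 0.05 in edgeR's quasi-likelihood test, adjusted by the Benjamini-Hochberg method over all 12369 genes with enough counts to be tested. By that rule 69.1% of all tested genes were called, 34.4% higher and 34.7% lower in sh-KIF11, and the log2 fold changes of all tested genes had a median of 0.00 and quartiles of -0.31 and 0.36. KIF11 itself went from 116 ± 5.01 CPM in sh-ctrl to 68.8 ± 5.16 CPM in sh-KIF11 (SD, n = 3 each; log2 fold change -0.75, adjusted p = 4.22e-15). Of 12 hepatocyte markers, which check the cell line, all 12 had enough counts to be tested, and 11 were lower in sh-KIF11 with a median log2 fold change of -0.99.

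Most genes of the mitochondrial ribosome were lower in sh-KIF11. Of the 78 genes, 77 had enough counts to be tested, of which 64 were lower, 2 (MRPL1 and MRPL42) were higher and 11 did not pass the test. That is 85.7% called, against 69.1% of all tested genes, and 83.1% lower against 34.7%. The median log2 fold change of the 77 genes was -0.40, with quartiles of -0.54 and -0.19 and a range from -1.26 for MRPL11 to 0.26 for MRPL1, and 69 of them lay below the median of all tested genes. The falls were mostly modest. A change of at least 1.5-fold was found in 15 of the 77 genes, all of them lower, where 25.7% of all tested genes changed by as much, 10.7% lower and 15% higher. In all 64 genes that fell, every sh-KIF11 library lay below every sh-ctrl library. Groups without overlap were found for 65 of the 77 genes, against 71.2% of all tested genes. For 1 gene taken alone, the smallest two-sided p of an exact permutation test over these 6 libraries is 0.1.

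**Figure D1:**
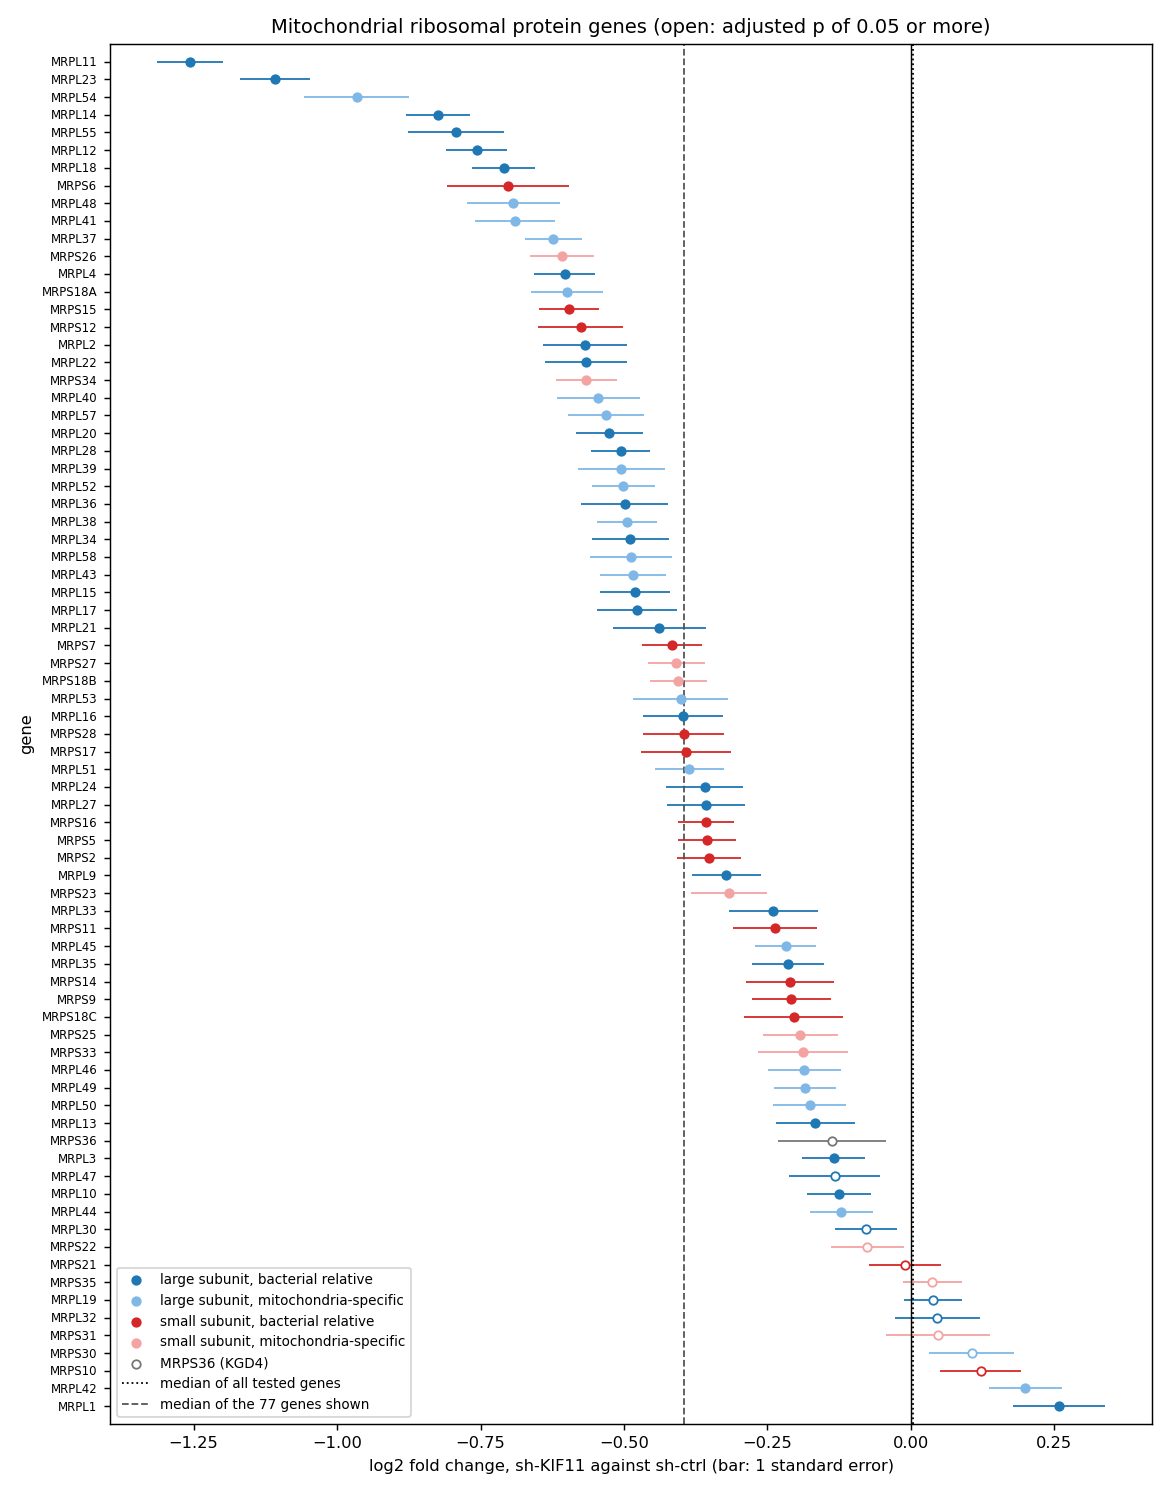
Each point is the log2 fold change (sh-KIF11 against sh-ctrl, x axis) of 1 of the 77 tested genes (y axis), with a bar of 1 standard error, coloured by subunit and by whether the protein has a bacterial relative. MRPS18A and MRPS18B, though paralogs of bacterial S18, are coloured with those found only in mitochondria. Most points lie left of the dotted median of all tested genes, the dashed median of the 77 genes is at -0.40, and open points did not pass the test.

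The sum over all 78 genes showed how close the libraries of a group were. It was 5958, 5929 and 6133 CPM in the sh-ctrl libraries and 4617, 4589 and 4620 CPM in the sh-KIF11 libraries. The means were 6007 ± 111 and 4609 ± 17.4 CPM (SD, n = 3 each), a ratio of 0.767, and the groups did not overlap. As a plain share of each library's counts, with no TMM factor, the genes took 0.552%, 0.546% and 0.565% in sh-ctrl, against 0.498%, 0.497% and 0.502% in sh-KIF11. On the deposited FPKM values, which correct for transcript length as well as depth, the ratio of the sums was 0.864. The sum was thus lower in sh-KIF11 on each of the 3 scales, by an amount that depended on the scale. In bulk RNA, fewer cells that express a gene and less of its RNA per cell cannot be told apart.

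How far the genes were below 0 depended on where 0 was set. Scaling by library totals alone put the median of all tested genes at 0.24 and that of the mitochondrial ribosomal genes at -0.17, with 11 of them higher and 41 lower. The distance between these medians was -0.40, the same as with TMM, RLE and upper-quartile factors. Such scalings shift all genes by 1 amount, so this distance could hardly differ between them. On log2(FPKM + 1) the distance was -0.28. Each change given with TMM factors is thus close to a distance from the median tested gene, which lay at 0.00. Values under library totals alone stand beside a median of 0.24. Those on log2(FPKM + 1) stand beside a median of 0.12, so a value above 0 there can still lie below the median tested gene. In the family, 40 genes were called lower in all 17 settings that were fitted, and no gene was called higher in all 17. The share of all tested genes called in every setting was not computed, so these counts have no background beside them.

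**Figure D2:**
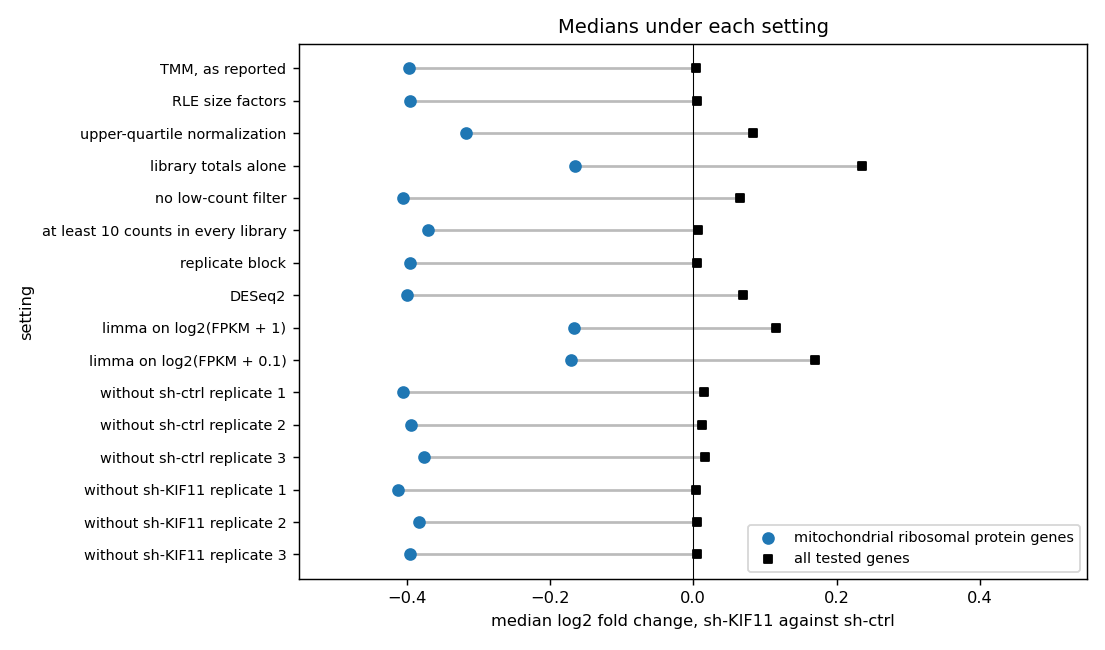
For each setting (y axis), the circle marks the median log2 fold change (x axis) of the mitochondrial ribosomal protein genes and the square that of all genes tested in that setting. Circles stay below squares in every setting, while both move to the right with library totals alone, with upper-quartile factors and on FPKM.

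By subunit, the large one had 51 tested genes, of which 44 were lower and 2 higher, with a median log2 fold change of -0.48. The small one had 25 tested genes, of which 20 were lower and 0 higher, with a median of -0.35. The summed level of the large subunit fell from 3977 ± 77.7 to 2993 ± 10.7 CPM, a ratio of 0.753, and that of the small subunit from 2012 ± 32.8 to 1599 ± 8.76 CPM, a ratio of 0.795 (SD, n = 3 each). Neither sum overlapped between the groups. By class, the large subunit gave near medians, -0.46 over 30 genes with bacterial relatives and -0.49 over 21 genes listed as found only in mitochondria. In the small subunit the medians were -0.36 over 15 genes with bacterial relatives and -0.26 over 10 genes listed as found only in mitochondria. MRPS18A and MRPS18B, though paralogs of bacterial S18, were counted with those found only in mitochondria. The difference between the subunits was not tested. MRPS36, which is no part of the ribosome despite its name, had a log2 fold change of -0.14 and did not pass (adjusted p = 0.191).

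The lowest log2 fold changes, those of MRPL11 and MRPL23, were both in the large subunit. MRPL11 lies in the factor-binding centre at the base of the stalk, and on GRCh38 its gene spans chr11:66435075-66466738 on the minus strand. Its level was 113, 118 and 117 CPM in sh-ctrl and 51.9, 47.0 and 47.3 CPM in sh-KIF11. All 3 knockdown libraries were thus far below all 3 control libraries (log2 fold change -1.26, standard error 0.0571, adjusted p = 1.73e-22). Its gene model overlaps PELI3 on the other strand. MRPL12, the protein of the flexible stalk that recruits elongation factors (chr17:81703357-81707526, plus strand), had 243, 216 and 223 CPM in sh-ctrl and 142, 128 and 133 CPM in sh-KIF11. The lowest control library of MRPL12 was still well above the highest knockdown library (log2 fold change -0.76, adjusted p = 2.76e-16).

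The other stalk genes moved little or the other way. MRPL10 anchors the MRPL12 copies to the ribosome, and it had 83.8, 90.7 and 86.2 CPM in sh-ctrl and 77.1, 80.2 and 81.7 CPM in sh-KIF11. This small fall (log2 fold change -0.13, adjusted p = 0.0418) turned to a difference of 0.11 with library totals alone and 0.08 on log2(FPKM + 1). MRPL1 forms the opposite, mobile stalk near the site where spent tRNA leaves (chr4:77862520-77952790, plus strand). It was among the lowest in counts of the genes called, with 22.9, 21.7 and 24.5 CPM in sh-ctrl and 25.9, 29.1 and 27.5 CPM in sh-KIF11. The groups did not overlap, and MRPL1 was higher in sh-KIF11 (log2 fold change 0.26, standard error 0.0806, adjusted p = 0.00471). The stalk genes therefore spanned the whole range of the family, from its lowest log2 fold change to its highest.

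At the exit of the tunnel, 5 of 6 genes were lower, with a median of -0.42. MRPL23 stood out among them (chr11:1947278-1984522, plus strand), with 90.7, 94.3 and 90.4 CPM in sh-ctrl and 45.4, 40.5 and 41.8 CPM in sh-KIF11. The fall of MRPL23 was again without overlap (log2 fold change -1.11, standard error 0.0604, adjusted p = 8.35e-20), and on log2(FPKM + 1) the difference was -0.63. MRPL22, MRPL17 and MRPL24 followed with -0.57, -0.48 and -0.36 (adjusted p = 3.55e-09, 1.27e-07 and 1e-05). The MRPL24 call was lost in 4 of the 16 other settings, with -0.13 under library totals alone and -0.06 on log2(FPKM + 1). MRPL45, which ties the ribosome to the inner membrane, had 137, 155 and 159 CPM in sh-ctrl and 129, 129 and 130 CPM in sh-KIF11. The knockdown libraries of MRPL45 were nearly equal while the control libraries were spread (log2 fold change -0.22, adjusted p = 0.000424), and library totals alone gave 0.01. MRPL47 had a log2 fold change of -0.13 with overlapping groups and did not pass (adjusted p = 0.133).

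Further large subunit genes had falls of more than 0.7 on the log2 scale. MRPL54, a protein found only in mitochondria (chr19:3762664-3768575, plus strand), had 21.4, 24.2 and 24.2 CPM in sh-ctrl and 11.7, 11.7 and 12.3 CPM in sh-KIF11 (log2 fold change -0.97, standard error 0.0913, adjusted p = 2.21e-12). MRPL14 lies at the interface between the subunits (chr6:44113454-44127457, minus strand) and had 116, 112 and 115 CPM against 68.2, 61.0 and 64.0 CPM, a log2 fold change of -0.82 (adjusted p = 7.31e-17). Its gene model overlaps TMEM63B on the other strand. MRPL55 had 33.3, 29.03 and 28.8 CPM in sh-ctrl and 16.9, 17.8 and 17.9 CPM in sh-KIF11 (log2 fold change -0.79, adjusted p = 3.66e-11). MRPL18 had 130, 126 and 124 CPM in sh-ctrl and 72.3, 76.7 and 83.2 CPM in sh-KIF11 (log2 fold change -0.71, adjusted p = 6.34e-15). None of these 4 genes overlapped between the groups, and all 4 were called lower in every setting.

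MRPL42, found only in mitochondria, was the other gene that was higher (chr12:93467488-93516213, plus strand). Its level was 60.7, 61.0 and 71.6 CPM in sh-ctrl and 74.9, 77.7 and 69.1 CPM in sh-KIF11. The third sh-ctrl library lay above the third sh-KIF11 library, so the groups overlapped even though the gene passed (log2 fold change 0.20, standard error 0.0636, adjusted p = 0.00556). Without sh-KIF11 library 2 the call was lost (log2 fold change 0.16, adjusted p = 0.0527). Over all fits that left out 1 library, between 1 and 4 genes were called higher and between 57 and 63 lower.

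**Figure D3:**
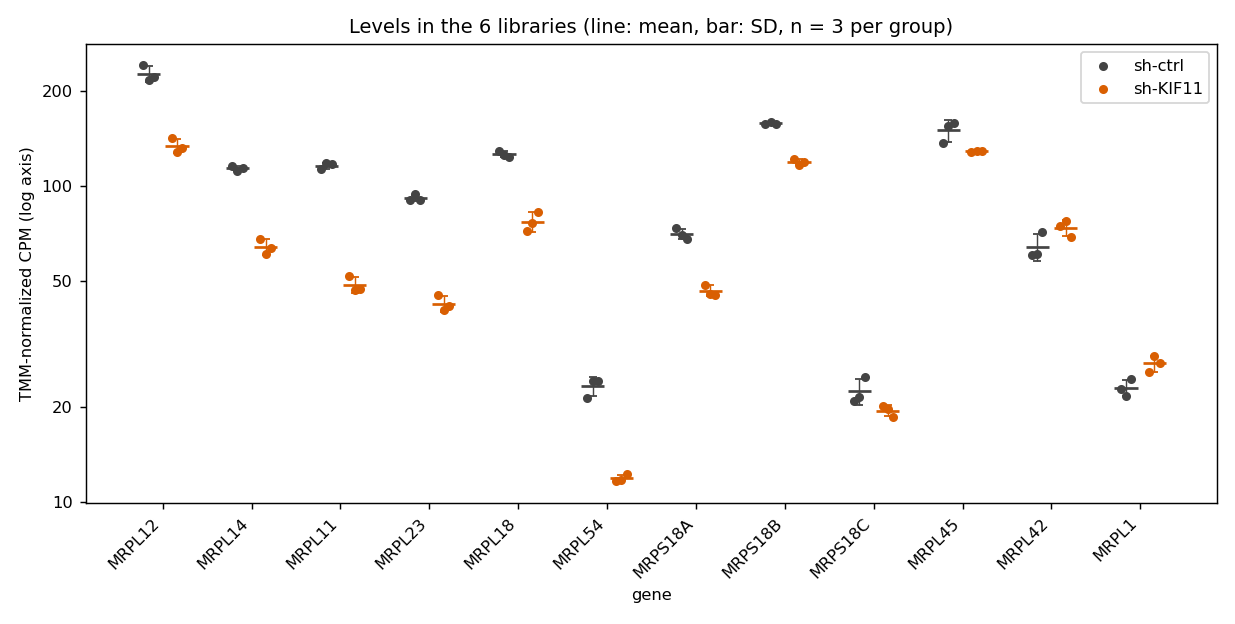
TMM-normalized CPM (y axis, log scale) of 12 of the genes (x axis) in each sh-ctrl and each sh-KIF11 library, with the mean as a line and the SD as a bar (n = 3 per group). MRPL11, MRPL23 and MRPL54 show the widest gaps, MRPS18C and MRPL45 narrow ones, MRPL42 overlapping groups and MRPL1 higher levels in sh-KIF11.

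In the small subunit the changes were smaller. MRPS6, related to a bacterial protein of the platform, had 19.0, 15.8 and 16.9 CPM in sh-ctrl and 10.9, 8.99 and 12.0 CPM in sh-KIF11. It had the lowest log2 fold change of the subunit (-0.70, standard error 0.106, adjusted p = 2.2e-07), and its gene model overlaps SLC5A3 on the same strand, so reads of these genes may have been shared. The genes that did not pass were spread over both subunits. They were MRPS10, MRPS21, MRPS22, MRPS31 and MRPS35 in the small subunit, MRPL19, MRPL30, MRPL32, MRPL47 and MRPS30 in the large one, and MRPS36, named here after their values were seen. Their log2 fold changes lay between -0.14 for MRPS36 and 0.12 for MRPS10, and the groups overlapped in each of them.

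The 3 paralogs of bacterial S18 changed by different amounts. MRPS18A, whose product is built into the large subunit, had 73.7, 70.1 and 68.4 CPM in sh-ctrl and 48.8, 45.8 and 45.4 CPM in sh-KIF11 (log2 fold change -0.60, adjusted p = 2.99e-11). MRPS18B, a protein of the small subunit, had 157, 160 and 158 CPM in sh-ctrl and 122, 117 and 119 CPM in sh-KIF11 (log2 fold change -0.41, adjusted p = 2.05e-09). MRPS18C, the small subunit protein nearest in place to the bacterial one, had 20.9, 21.5 and 24.9 CPM in sh-ctrl and 20.1, 19.7 and 18.6 CPM in sh-KIF11 (log2 fold change -0.20, adjusted p = 0.0342). Groups did not overlap in any of the 3, but the MRPS18C libraries nearly touched, and its call was lost in 10 of the 16 other settings, with 0.03 under library totals alone. Whether the paralogs differed from each other was not tested. Their gene models overlap RSPH9, PPP1R10 and ABRAXAS1 on the other strand.

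MRPS24, a small subunit protein with a bacterial relative, could not be tested, because the count table gives it 1, 0 and 0 counts in sh-ctrl and 1, 1 and 1 counts in sh-KIF11. The FPKM table nevertheless lists it at 110, 112 and 109 for sh-ctrl and at 71.0, 74.4 and 80.5 for sh-KIF11. The 2 tables therefore disagree on this gene. In GENCODE 29, MRPS24 (chr7:43866558-43869893, minus strand) lies within the read-through gene URGCP-MRPS24 on the same strand, which had 0 counts in all 6 libraries. Whether reads shared with the read-through gene were dropped in counting was not tested.

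Compared per length by FPKM, the family was well expressed and kept its order of levels. The median FPKM of its genes was 28.96 in sh-ctrl and 30.02 in sh-KIF11, where the median of all tested genes was 5.75 and 6.61, and 76 of the 78 genes were above the sh-ctrl median of tested genes. In sh-ctrl the highest FPKM were 176 for MRPL12, 110 for MRPS24, 106 for MRPL41, 102 for MRPL51 and 97.2 for MRPL18. The lowest were 2.98 for MRPS11, 4.73 for MRPL52, 7.75 for MRPL21, 7.98 for MRPS31 and 8.02 for MRPL55. Close neighbours in this order did not differ beyond their spread. MRPL41 (106 ± 6.15) and MRPL51 (102 ± 8.24) were such a pair, and so were MRPL21 (7.75 ± 0.615) and MRPS31 (7.98 ± 0.634; FPKM in sh-ctrl, SD, n = 3). Between the groups, the order of FPKM levels had a Spearman correlation of 0.960 across the 78 genes, which are not independent replicates. MRPL41 and MRPL51, both of the large subunit and found only in mitochondria, had log2 fold changes of -0.69 and -0.39 (adjusted p = 1.24e-11 and 3.59e-07).

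A few of the low FPKM values were out of step with the counts. MRPS11, a small subunit protein, had 45.6 ± 3.56 CPM and MRPL52, of the large subunit, 97.8 ± 2.49 CPM in sh-ctrl (SD, n = 3), near or above the level of many family members in counts. Dividing CPM without TMM by FPKM implies a length of 14.4 kb for MRPS11, 19.7 kb for MRPL52 and 9.84 kb for MRPL23, where the median GENCODE transcript of these genes is 2.2, 0.586 and 0.643 kb long. In all, 9 genes had an implied length of at least 4 times their GENCODE median, MRPL21 and MRPL55 included, and their rank by FPKM is uncertain. For MRPS11, MRPL52 and MRPL23 the log2 fold changes on counts were -0.24, -0.50 and -1.11, and that of MRPL21 was -0.44, each called lower. The MRPS11 call was lost in 5 of the 16 other settings, with -0.0061 under library totals alone and -0.036 on log2(FPKM + 1), and that of MRPL52 was lost on both FPKM scales. MRPS31 had a log2 fold change of 0.05 and did not pass (adjusted p = 0.652).

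Over all tested genes, fold changes followed expression level, GC content and length, and the family is given beside them. In the top quintile of genes by mean FPKM, 67.5% were lower and the median log2 fold change was -0.29, and the 51 family members in it had a median of -0.39, with 43 lower. In the next quintile, 44.6% of genes were lower with a median of -0.09, and the 20 family members had a median of -0.48, with 16 lower. From the lowest to the highest quintile of transcript GC content, the medians of all genes were 0.25, 0.12, -0.04, -0.16 and -0.20. Those of the family were -0.14, -0.19, -0.41, -0.48 and -0.60 in the same quintiles, over 14, 15, 20, 15 and 13 genes. The family was thus below all genes in each quintile it occupied, and its own values followed the same slope with GC content. Its transcripts were short, with a median of 1035 bases against 1822.5 (GENCODE 29), and had a median GC content of 50.4% against 50.3%. The part of level, GC content and length in the result was not tested.

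**Figure D4:**
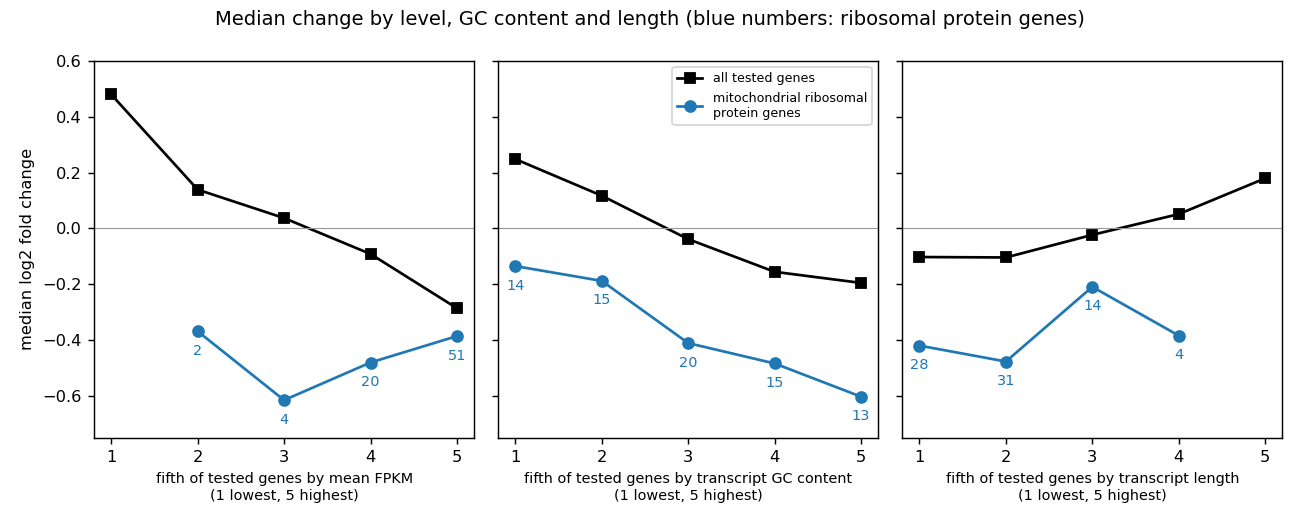
Median log2 fold change (y axis) of all tested genes (squares) and of the mitochondrial ribosomal protein genes (circles, with their number) in quintiles of the tested genes by mean FPKM, transcript GC content and transcript length (x axes). Circles lie below squares in every quintile that holds family members, and the gap is narrowest, -0.39 against -0.29, in the highest quintile by level.

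Proteins of the mitochondrial ribosome that carry other names were also lower. All 5 of those in the table were called, with a median log2 fold change of -0.37. AURKAIP1, a small subunit protein, had -0.61 (adjusted p = 6.54e-14) and GADD45GIP1, of the large subunit, had -0.57 (adjusted p = 3.71e-12). CHCHD1 had -0.37 (adjusted p = 5.15e-05) and PTCD3 had -0.27 (adjusted p = 1.97e-05), both of the small subunit. DAP3, a GTP-binding protein of the small subunit, was the weakest with -0.13 and overlapping groups (adjusted p = 0.0296), and it turned to 0.10 with library totals alone and 0.05 on log2(FPKM + 1).

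The factors that build and serve the ribosome were less uniform. Of 23 assembly factors, 10 were lower and 4 higher, with a median log2 fold change of -0.09. MALSU1, which binds MRPL14 in the immature large subunit, fell from 55.8 ± 0.910 to 35.8 ± 2.61 CPM (-0.64, adjusted p = 8.86e-11), and ERAL1, the chaperone of the small subunit rRNA, fell from 92.6 ± 1.58 to 64.9 ± 2.71 CPM (-0.51, adjusted p = 1.05e-10; SD, n = 3 each). GTPBP10, a GTPase of large subunit assembly, rose with 0.49 (adjusted p = 1.78e-06). Of 15 translation factors, 5 were lower and 5 higher, with a median of 0.00. TUFM, the elongation factor that brings in tRNA, had -0.38 (adjusted p = 6.94e-09), its exchange factor TSFM had -0.31 (adjusted p = 0.000243), and the release factor homologue MTRF1 had 0.45 (adjusted p = 8.78e-05). The shares lower were 43.5% of assembly factors and 33.3% of translation factors, against 34.7% of all tested genes.

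Enzymes that charge mitochondrial tRNAs lay between these. Of 20 synthetases, 11 were lower and 1, HARS2, was higher, with a median log2 fold change of -0.21. VARS2, LARS2 and SARS2, for valine, leucine and serine, had -0.53, -0.42 and -0.41 (adjusted p = 2.44e-11, 4.38e-08 and 4.29e-06). Of 14 tested genes for mitochondrial transcription and RNA processing, 4 were lower and 3 higher, with a median of -0.02. Lower were thus 55% of synthetases and 28.6% of transcription and processing genes, against 34.7% of all tested genes. Higher were 5% and 21.4%, against 34.4%. The transcription termination factor MTERF1 had 0.42 (adjusted p = 0.00134), and the RNase P subunits HSD17B10 and TRMT10C had -0.37 and 0.35 (adjusted p = 1.81e-06 and 0.000531). Of the 13 mRNAs encoded by the mitochondrial genome, 0 are in the table, and they were not analysed here.

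The proteins of the cytosolic ribosome, which makes all other proteins of the cell, were lower as well. Of their 79 genes, 75 were lower (94.9%, against 34.7% of all tested genes) and 1, RPL36A, was higher. Their median log2 fold change was -0.49, against -0.40 for the mitochondrial ribosome. RPSA, RPS28 and RPLP1 had -1.18, -0.78 and -0.77 (adjusted p = 1.88e-24, 8.21e-16 and 8.8e-18). RPL36A, at 2.32 ± 0.480 CPM in sh-ctrl (SD, n = 3), had the lowest CPM of that family. Its mean FPKM was 4.73 in sh-ctrl and 4.54 in sh-KIF11, so its rise in counts was not seen on FPKM. Whether the families of the cytosol and of mitochondria differed in their change was not tested.

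**Figure D5:**
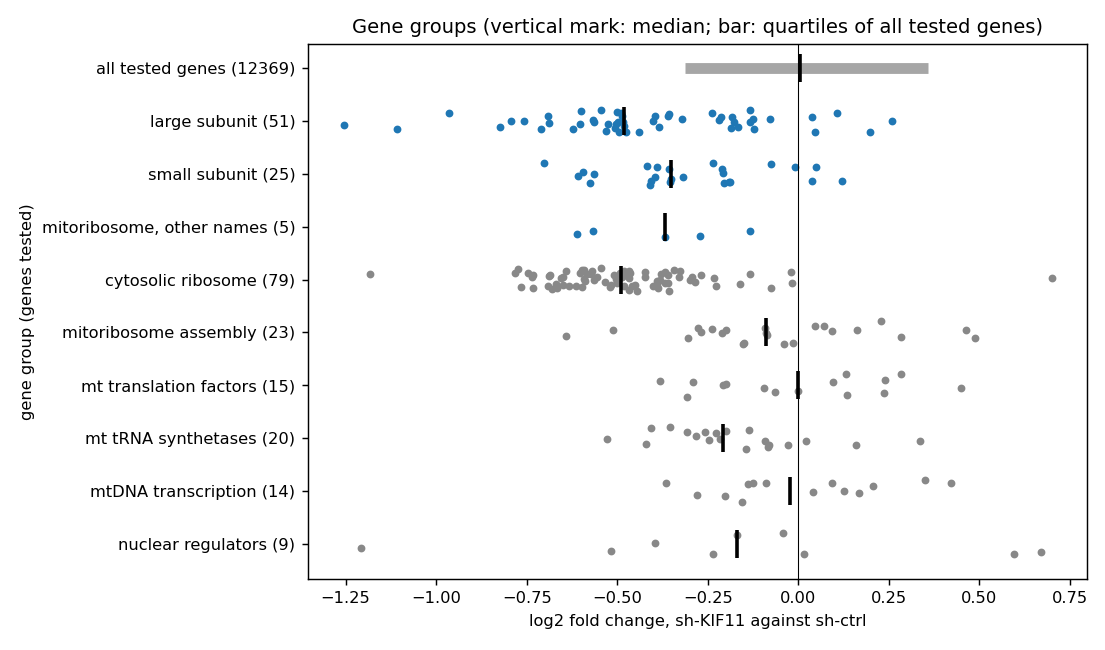
Log2 fold change (x axis) of each tested gene in the large and small subunit, in the other gene groups of mitochondrial translation and in the cytosolic ribosome (y axis, with the number of genes), with the median of each group as a vertical mark and the quartiles of all tested genes as the top bar. Both ribosomes have medians between -0.35 and -0.49, and assembly factors, translation factors and transcription genes have medians from -0.09 to 0.00.

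Nuclear factors known to act on genes for mitochondrial proteins did not move together. Of 9 listed, 5 were lower (55.6%) and 2 higher (22.2%), against 34.7% and 34.4% of all tested genes. Their median log2 fold change was -0.17. The coactivator PPARGC1A (PGC-1alpha) had 24.7, 25.6 and 26.6 CPM in sh-ctrl and 11.2, 11.3 and 10.7 CPM in sh-KIF11, a fall without overlap (-1.21, adjusted p = 1.48e-15). GABPA, the DNA-binding chain of an ETS factor also called NRF2 in this field, had 18.4, 22.8 and 22.8 CPM in sh-ctrl and 33.6, 31.5 and 31.5 CPM in sh-KIF11, a rise without overlap (0.59, adjusted p = 3.96e-08). PPARGC1B, at 1.46 ± 0.815 CPM in sh-ctrl (SD, n = 3), had 0.67 with overlapping groups (adjusted p = 0.0327), a call that was lost in 8 of the 16 other settings. NRF1 and ESRRA had -0.40 and -0.52 (adjusted p = 0.000156 and 8.19e-09). YY1 had -0.04 and did not pass (adjusted p = 0.497).

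Binding motifs of such factors were searched in the promoters of the family, taken as 250 bases before to 50 bases after the RefSeq start (GRCh38.p14), on both strands. RefSeq promoters were found for 70 of the 78 genes and for 15638 genes of the table. The ETS letters CCGGAAG were in 29 of the 70 promoters (41.4%), against 14.4% of all promoters and 19.7% of those of tested genes. The YY1 letters AAGATGG were in 23 promoters (32.9%), against 6.41% and 7.66%, and in 16 of the 23 they followed the start on the strand of the gene. These letters contain ATG, the start codon of translation, and how many of the matches are start codons was not tested. The NRF1 letters GCATGCG were in 7 promoters (10%, against 5.15% and 6.54%) and the E-box CACGTG in 7 (10%, against 8.90% and 10.4%). None of these motifs contains another, and CACGTG reads alike on both strands.

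The windows of 30 bases below, 5′ to 3′ on the strand of the gene, show the motif in capitals. The first 5 carry YY1 letters just after the RefSeq start, in MRPL11, which had the lowest log2 fold change, in 2 of the 3 S18 paralogs, in the higher gene MRPL42 and in the untested MRPS24. For MRPL11 the RefSeq start lies well inside the GENCODE span given above, so the 2 sources differ on where this gene starts. The next pair carry ETS letters, on the other strand in MRPL54, and the last carries NRF1 letters.
MRPL11, chr11:66438806-66438835 (minus): acctctggcccAAGATGGtggcgcccagag
MRPS18A, chr6:43687764-43687793 (minus): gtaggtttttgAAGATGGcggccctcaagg
MRPS18B, chr6:30617852-30617881 (plus): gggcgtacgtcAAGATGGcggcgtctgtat
MRPL42, chr12:93467511-93467540 (plus): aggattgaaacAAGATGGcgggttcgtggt
MRPS24, chr7:43869480-43869509 (minus): ccgcttggcccAAGATGGcggcctccgtgt
MRPL54, chr19:3762650-3762679 (plus): gccactgacgtCTTCCGGaaacgtgcactt
MRPS18A, chr6:43687804-43687833 (minus): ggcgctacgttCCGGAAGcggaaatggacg
MRPL17, chr11:6683401-6683430 (minus): ggctctgatgcGCATGCGcaaacacgttca

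Medians of the genes with and without each motif were as follows, and no difference between them was tested. Genes with ETS letters had a median log2 fold change of -0.40 and those without -0.38, and genes with YY1 letters had -0.40 and those without -0.39. The 7 genes with NRF1 letters had -0.48 and those without -0.37, and the 7 genes with the E-box had -0.22 and those without -0.39. The same YY1 letters stand in MRPL11, at the low end of the family, and in MRPL42, which was higher. A match is a description of letters only, and binding was not measured here.

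Several of the genes share a short stretch of DNA with a neighbour read the other way. Partners were sought on the opposite strand, as coding genes starting at most 1000 bases before the start of the gene model. Neighbours that overlap the model, such as SARS2 at MRPS12, were not counted, so partners within 1000 bases may have been missed. By this rule 17 of the 78 genes had a partner (21.8%), against 9.84% of tested genes and 7.39% of genes in the table. MRPL46 and MRPS11, 1 from each subunit, start 34 bases apart and had log2 fold changes of -0.19 and -0.24 (adjusted p = 0.00887 and 0.004). Both calls ended with library totals alone, where MRPL46 was at 0.045 and MRPS11 at -0.0061, and on log2(FPKM + 1). MRPL36 and NDUFS6, a complex I subunit, also 34 bases apart, had -0.50 and -0.61 (adjusted p = 2.48e-07 and 7.29e-12). MRPS34 and EME2, 52 bases apart, went opposite ways with -0.57 and 1.44 (adjusted p = 2.11e-12 and 1.86e-08). These pairs were chosen after their values were seen. Among the pairs found by this rule, both genes were tested in 14, of which 1 lies within the family. Of the 13 partners outside the family, 4 were lower, 4 higher and 5 not called, against 34.7% lower and 34.4% higher of all tested genes.

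Other features of the samples moved with the family. All 8 proliferation markers were lower, led by CCNB1, MCM2 and AURKA with -0.70, -0.60 and -0.56 (adjusted p = 7.89e-16, 4.9e-13 and 1.69e-12), and their summed level was 2710 to 2819 CPM in sh-ctrl and 2079 to 2223 CPM in sh-KIF11. The summed level of the 12 hepatocyte markers was 34428 to 36032 CPM in sh-ctrl and 15530 to 16643 CPM in sh-KIF11, led by TF, APOA1 and SERPINA1 with -2.28, -1.92 and -1.57 (adjusted p = 2.43e-33, 1.02e-30 and 9.26e-28). The 20 most abundant genes took 9.35% to 9.68% of counts in sh-ctrl and 6.91% to 7.04% in sh-KIF11. The part of these in the result was not tested.

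Markers of fibroblasts and endothelium were scarce, while the blood list was not, owing to LYZ and CD68. Of 6 fibroblast markers, 1 was tested (PDGFRB, -1.16, adjusted p = 6.36e-05), DCN and THY1 had 0 counts in every library, and the list summed to 2.55 to 3.88 CPM in sh-ctrl and 1.40 to 2.04 CPM in sh-KIF11. Of 5 endothelial markers, 2 were tested, VWF had 1.01 (adjusted p = 0.000342), and the list summed to 3.16 to 3.56 CPM and 4.73 to 4.98 CPM. Of 6 blood markers, 4 were tested and all 4 were called, LYZ with -2.35, CD14 with -1.78, CD68 with -0.90 and CD79A with 1.89 (adjusted p = 1.83e-29, 0.000185, 4.2e-16 and 1.68e-08). The blood list summed to 2482 to 2978 CPM in sh-ctrl and 509 to 640 CPM in sh-KIF11, of which LYZ alone made up means of 2613 and 511 CPM. The part of this list in the result was not tested. PTPRC, a marker of white blood cells, and CD3E, a marker of T cells only, had at most 3 counts in any library.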

How the data were processed

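The authors deposited raw counts per gene and a second table of FPKM values, both for 6 HepG2 libraries (TruSeq Stranded mRNA kit, paired-end reads). The submitters' processing notes list bcl2fastq 1.8.4, Trimmomatic, HISAT2 2.1.0, Cufflinks 2.2.1, HTSeq 0.9.1 and DESeq, with GRCh38. The strand setting of counting is not given in the sources used here, and 26 of the genes overlap a coding gene on the other strand, 13 one on the same strand, and 34 have named pseudogenes, so their counts carry that uncertainty. Knockdown columns are named shRNA in the tables and were matched to the sh-KIF11 labels by their number.

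The count test was run in edgeR 4.0.16 under R 4.3.3 (TMM, filterByExpr, quasi-likelihood test, two-sided, Benjamini-Hochberg over 12369 tested genes, 7661 left out, threshold 0.05). Alternatives used limma 3.58.1 on log2(FPKM + 1) and log2(FPKM + 0.1), DESeq2 1.42.0, other scalings and filters, a test against a fold of 1.2 and each library left out. Within a group, no pair of libraries agreed within counting error (chi-square over its degrees of freedom 2.42 to 6.85, against 68.4 to 82.8 between groups). Each was kept as a replicate, though such a spread may be technical and cannot show that the cultures were separate. The procedures were tested on simulated data in which few genes changed, as many up as down. In the present data 69.1% of tested genes were called, so that test cannot judge the scaling used here. Positions and lengths are from GENCODE 29 (GRCh38) and promoters from RefSeq (GRCh38.p14), where motifs were shortened after a longer form had been searched.

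The genes and lists were chosen with earlier results of these data known. Genes were named by rule: KIF11, the 8 most raised and 8 most lowered called members, the 5 highest and 5 lowest by FPKM in sh-ctrl, untested members, the MRPS18 paralogs, stalk and tunnel exit genes, up to 3 called genes of the largest change in each other list, and all ribosomal proteins with other names. Only 2 members were called higher. HARS2, RPL36A, NRF1, ESRRA, YY1, CD68, PTPRC, CD3E, DCN, THY1 and the members of pairs were named after their values were seen.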

Additional observations from a re-analysis of the deposited data

How the results depend on the processing

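Across the 16 other settings, members called lower stayed within 1.5 times of 64 in 15, and the exception was library totals alone, with 41. Members called higher, 2 as reported, were 6 with upper-quartile factors, 11 with library totals alone, 8 on either FPKM scale and 0 when tested against a fold of 1.2, and 1 to 4 with each library left out (1 without sh-KIF11 library 2, 4 without sh-ctrl library 3). The median log2 fold change of the family was -0.32 with upper-quartile factors, -0.17 with library totals alone and -0.17 on both FPKM scales. That of the large subunit was -0.40, -0.25, -0.25 and -0.26 in the same order, and that of the small subunit -0.27, -0.12, -0.14 and -0.14. The number of all genes called higher was 6621 with library totals alone and 2636 against a fold of 1.2, and that of all genes called lower was 2373 with library totals alone, 2596 and 2597 on the FPKM scales and 2495 against a fold of 1.2. In the family, 19 genes changed sign with library totals alone and 9 on each FPKM scale, where the medians of all tested genes also lay above 0. Among the genes named by rule, those under library totals alone, log2(FPKM + 1) and log2(FPKM + 0.1) were MRPL10 (0.11, 0.078 and 0.080), MRPL47 (0.10, 0.0091 and 0.0097) and DAP3 (0.10, 0.053 and 0.054), and under library totals alone MRPS18C (0.027) and MRPL45 (0.013). The calls of CHCHD1, PTCD3, HSD17B10 and TSFM ended with library totals alone (-0.14, -0.041, -0.13 and -0.076), and MRPS31 was then called higher (0.28). Totals and upper-quartile factors shift all genes by 1 amount, and the cause of the FPKM differences was not tested. With the replicate number as a block the calls were 2 higher and 64 lower, all 66 shared with the fit without it. Same-numbered libraries did not deviate together (r = 0.03, -0.02 and -0.003). The numbers thus gave no sign of a pairing, which values over all genes, with their counting noise, cannot exclude. With 3 libraries a group, small differences such as those of the 11 genes that did not pass may go undetected.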
